A study of Mus musculus with 6 samples.

Results

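The length of a poly(A) tail helps to decide whether a messenger RNA is translated, stored or destroyed, and a set of genes that add, bind or count such tails was followed here in mouse round spermatids. The set named 10 genes, chosen by symbol: the CPEB genes Cpeb1 to Cpeb4, the poly(A) polymerase genes Papola and Papolb, the poly(A)-binding genes Pabpc1, Pabpc4 and Pabpn1, and Paip2, which encodes an inhibitor of poly(A)-binding protein. Rows were found for 8 of them among the 22770 genes of the count table, and Cpeb1 and Pabpc4 were not analysed here. All 8 passed the filter on low counts, which left 19776 genes to test.

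Smart-seq2 libraries were made from 3 samples of the genotype Eif5a SKO and 3 of wild type, each of round spermatids sorted out of the testis at postnatal day 28, mostly at step 8. The labels do not expand SKO, and the allele, the Cre driver and the strain were not given in the sources used here. The protein made from Eif5a acts on the ribosome, where it eases peptide bond formation at slow sequences. The Eif5a level was 5.35 to 6.88 CPM in the SKO libraries against 616.4 to 700.9 CPM in wild type, and each library's level matched its label. The labels do not say that libraries of a group came from separate animals, so p-values measure the spread between these libraries only.

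CPEB proteins bind short U-rich elements near the end of an mRNA and can hold it silent or recruit a polymerase that lengthens its tail. Poly(A) polymerases add the tail, in the nucleus after cleavage and, in germ cells, also in the cytoplasm. Cytoplasmic poly(A)-binding proteins coat the tail and link it to the translation machinery, while PAIP2 displaces them. Round spermatids stop transcription as they elongate, so many of their mRNAs are made early, stored and translated later, and tail length is one of the controls on that delay.

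The annotated ends of the genes themselves carry the signal at which a tail is added, and 4 are shown because they come from the CPEB genes and the poly(A)-binding gene whose levels are described next. Each run is 30 bases of the sense strand from the GENCODE M21 transcript set (GRCm38), 5′ to 3′, with the polyadenylation signal in capitals. They lie in the 3′ untranslated part of the last exon, at chr5:43289684-43289713 (plus strand) for Cpeb2, chr19:37021307-37021336 (minus strand) for Cpeb3, chr11:31935598-31935627 (plus strand) for Cpeb4 and chr15:36595670-36595699 (minus strand) for Pabpc1.
Cpeb2: taatattgttgactgactAATAAActatta
Cpeb3: tgtaacggacaattggatAATAAAacgaca
Cpeb4: aatgtgagatgttgaatgAATAAAactttt
Pabpc1: ttataaaattcttgctttAATAAAaattcc

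In the last 100 bases of the longest coding transcript, AATAAA or its variant ATTAAA was found in 6 of the 8 genes, Papola and Pabpn1 being the exceptions. Among 12367 tested genes with a 3′ untranslated region of at least 100 bases, 81.1% held either signal in that window. The cytoplasmic polyadenylation element that CPEB1 is known to bind was searched as TTTTAT and TTTTAAT on the transcript strand. It was found in 0 of the 8 windows and in 18.4% of the 12367. A missing match says only that these letters are not in this window of these annotated ends.

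Levels were compared in CPM, read counts scaled to a common effective library size, and between genes only after division by transcript length. In wild type the highest level per length was that of Pabpc1, at 289.3 ± 11.2 CPM per kb (SD, n = 3), followed by Papolb at 279.1 ± 21.9, and the ranges of these 2 overlapped. Paip2 followed at 166.0 CPM per kb and Papola at 35.1, each apart from its neighbours in every library. Cpeb4, Cpeb2, Pabpn1 and Cpeb3 stood lowest, at 23.5, 11.4, 2.54 and 1.87 CPM per kb. The order of Cpeb4 and Cpeb2 depended on the transcript used: per kb of the longest annotated transcript, wild-type Cpeb4 was at 8.61 and Cpeb2 at 11.1. In SKO Pabpc1 stayed first, at 503.0 ± 43.7 CPM per kb, and Paip2 and Papolb came next with overlapping ranges, at 287.0 and 260.4.

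Between the genotypes, 3 of the 8 genes were higher in SKO (Cpeb2, Pabpc1 and Paip2), 1 was lower (Cpeb3), and 4 were not called (edgeR's quasi-likelihood test, Benjamini-Hochberg adjusted p under 0.05, with the adjustment over all genes tested). The same rule called 42.0% of all genes, 21.2% higher and 20.9% lower, so a count of 4 in 8 is near the background share. The median log2 fold change (SKO over wild type) of the 8 was 0.29, with a range from -1.27 to 0.91, and that of all genes tested was 0.012. The groups did not overlap for 5 of the 8 genes and for 55.6% of all genes. Only polyadenylated RNA was amplified, so the values are mRNA levels and do not measure tail length. In these bulk libraries, fewer cells of a type and less RNA per cell cannot be told apart.

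**Figure D1:**
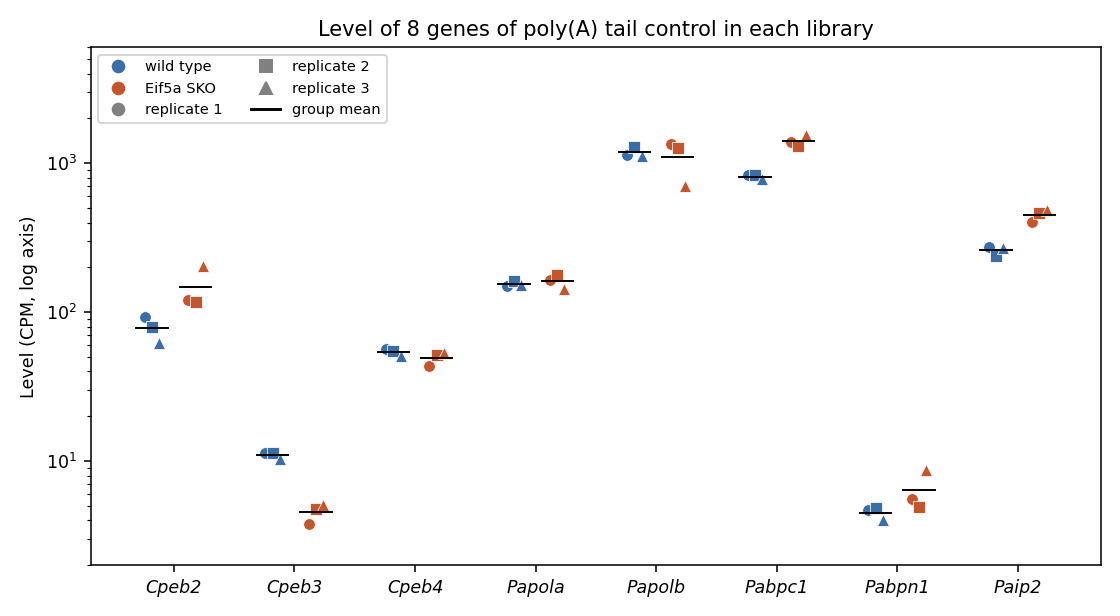
Level of each of the 8 genes in every library in CPM on a log axis, with wild type in blue, Eif5a SKO in orange, a symbol for each replicate number and a bar at the group mean. The groups are apart for Cpeb2, Cpeb3, Pabpc1, Pabpn1 and Paip2, and the SKO replicate 3 point of Papolb, at 704.7 CPM, lies below all other Papolb points.

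Of the 3 CPEB genes measured, 1 fell, 1 rose and 1 was not called. Cpeb3, whose protein represses translation and is best known from neurons, lies on chromosome 19 (37021291 to 37208601, minus strand, GRCm38). It had 11.3, 11.4 and 10.3 CPM in the wild-type libraries and 3.80, 4.79 and 5.11 CPM in the SKO libraries. Every SKO value was under every wild-type value, with a log2 fold change of -1.27 ± 0.19 (SE; edgeR adjusted p = 0.000624). The counts behind these levels were small beside those of the other CPEB genes, at 184 to 258 in SKO and 644 to 670 in wild type.

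Cpeb2, a close relative on chromosome 5 (43233170 to 43289724, plus strand), went the other way. The wild-type libraries held 93.5, 79.2 and 62.2 CPM, and the SKO libraries held 120.1, 116.5 and 203.8 CPM. The groups did not overlap, but SKO replicate 3 was far above the other SKO libraries, at 1.72 times their mean. The log2 fold change was 0.91 ± 0.24 (edgeR adjusted p = 0.0124). It was 0.56 without SKO replicate 3, where it still passed (edgeR adjusted p = 0.0157), and it missed the threshold without wild-type replicate 3 (edgeR adjusted p = 0.0521) and with library totals as the only scaling (edgeR adjusted p = 0.0553).

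Cpeb4, on chromosome 11 (31872211 to 31935634, plus strand), encodes a family member that binds the same kind of element. Its levels of 56.8, 55.3 and 50.7 CPM in wild type overlapped the SKO levels of 43.8, 51.6 and 53.2 CPM. The log2 fold change was -0.13 ± 0.14 (edgeR adjusted p = 0.479), and the sign turned when transcript length and GC content were corrected for (0.036). Within the sum of the 3 CPEB genes per kb, Cpeb2 made up 34.0%, 30.9% and 27.7% in the wild-type libraries and 47.3%, 42.4% and 55.5% in SKO. Cpeb3 made up 5.10% ± 0.28 (SD, n = 3) in wild type and 1.79% ± 0.21 in SKO. These shares rest on a short Cpeb4 transcript of 2312 bases. With the longest transcript of each gene (6303 bases for Cpeb4), the Cpeb2 share was 51.1% ± 3.71 in wild type and 69.9% ± 5.47 in SKO, and the Cpeb3 share was 8.72% ± 0.73 and 2.69% ± 0.46, with no overlap between the groups. The shares of all 3 CPEB genes were apart between the groups. The exact permutation test over libraries, two-sided, gave p = 0.1 for each, the smallest that 3 against 3 allows. These shares add up to the whole and are not separate results, and the Cpeb4 level itself was not called.

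These CPEB genes are related in sequence. Their coding sequences were identical at 72.7% of aligned bases for Cpeb2 and Cpeb3, 70.9% for Cpeb2 and Cpeb4 and 69.8% for Cpeb3 and Cpeb4. No window of 150 bases, the read length, in the transcript of any of the 3 was found in a transcript of another gene. Only exact matches were searched, and for Cpeb4 only the transcript of 2312 bases. Reads that align with mismatches or in part were therefore not covered. Antisense transcripts overlap 1.75% of the exonic bases of Cpeb2 and 1.56% of those of Cpeb3, and without a stated strand setting reads from those stretches cannot be assigned.

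**Figure D2:**
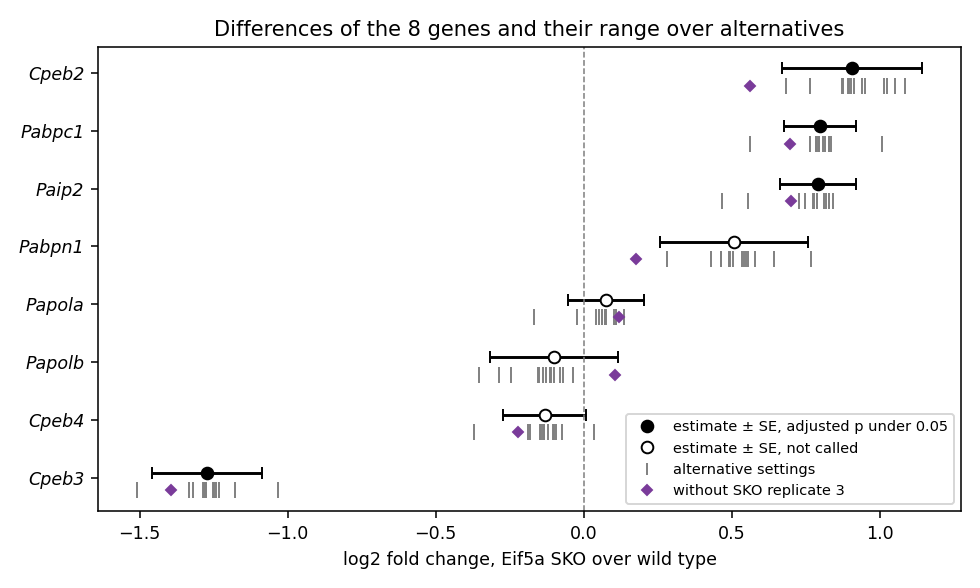
Log2 fold change (SKO over wild type) of the 8 genes, with filled circles for genes past the threshold, bars for ± SE, grey ticks for the alternative settings and diamonds for the value without SKO replicate 3. Cpeb3, at -1.27, stays left of 0 and Cpeb2, Pabpc1 and Paip2 stay right of 0 in every alternative, while Papolb crosses from -0.10 to 0.10 without SKO replicate 3.

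The poly(A) polymerase genes did not pass the test. Papola, the broadly expressed nuclear enzyme gene with 22 exons on chromosome 12 (105784694 to 105838944, plus strand), was counted at 148.9, 161.0 and 151.4 CPM in the wild-type libraries and at 164.9, 177.2 and 144.1 CPM in the SKO libraries. Its log2 fold change of 0.08 ± 0.13 (edgeR adjusted p = 0.668) changed sign under library totals (-0.168) and without SKO replicate 2 (-0.023). The ranges of the groups overlapped, and SKO replicate 3 held the lowest value.

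Papolb is the testis copy, a gene of 1 exon on chromosome 5 (142525838 to 142530076, minus strand) that lies within the span of Radil, shares no exonic base with it, and encodes the cytoplasmic polymerase needed for spermatid development. Its wild-type levels were 1138, 1290 and 1121 CPM, and its SKO levels were 1338, 1269 and 704.7 CPM. SKO replicates 1 and 2 lay within or above the wild-type range, and SKO replicate 3 was at 0.54 times the mean of the other SKO libraries. The log2 fold change was -0.10 ± 0.22 (edgeR adjusted p = 0.74), and it turned to 0.10 without SKO replicate 3. Papolg, another canonical nuclear polymerase gene, was low, with 4.91 to 6.60 CPM in wild type against 5.25, 7.61 and 1.64 CPM in SKO, and was not called (log2 fold change -0.29 ± 0.44, edgeR adjusted p = 0.628).

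Papolb held most of the polymerase mRNA in both genotypes. Its share of the summed CPM per kb of the 3 polymerase genes was 88.4% ± 0.41 (SD, n = 3) in wild type and 86.6% ± 2.96 in SKO, with 89.0%, 87.6% and 83.3% in the single SKO libraries. The difference of -1.75 percentage points had p = 0.5 in the exact permutation test, two-sided. The coding sequences of Papola and Papolb were identical at 85.2% of aligned bases, and no 150-base window of either transcript occurred in another gene's transcript.

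Both the cytoplasmic poly(A)-binding gene Pabpc1 and the inhibitor gene Paip2 were higher in SKO. Pabpc1 lies on chromosome 15 (36595661 to 36609668, minus strand) and encodes the main cytoplasmic poly(A)-binding protein. It rose from 836.6, 829.7 and 778.6 CPM in wild type to 1397, 1305 and 1549 CPM in SKO. The lowest SKO library was well above the highest wild-type library, and the log2 fold change was 0.80 ± 0.12 (edgeR adjusted p = 0.000745). A share of 1.65% of its 150-base windows was found in a transcript of another gene, Gm16580.

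Paip2, on chromosome 18 (35598617 to 35617187, plus strand), encodes the protein that pulls poly(A)-binding protein off the tail and is needed, with its paralog, for spermatids to mature. Wild-type libraries held 274.5, 238.3 and 268.6 CPM of it, and SKO libraries held 404.3, 460.7 and 485.8 CPM. All SKO values exceeded all wild-type values, and the log2 fold change was 0.79 ± 0.13 (edgeR adjusted p = 0.0011). Corrected for transcript length and GC content it was 0.47 and still passed (edgeR adjusted p = 0.0141), and that of Pabpc1 was 1.01. The paralog Paip2b was far lower, at 14.1 ± 1.11 CPM (SD, n = 3) in wild type against 17.5 ± 3.92 CPM in SKO, and did not pass (log2 fold change 0.31 ± 0.19, edgeR adjusted p = 0.218). Paip2 held 97.9% ± 0.29 (SD, n = 3) of the pair's summed CPM per kb in wild type and 98.5% ± 0.20 in SKO, groups that did not overlap (exact permutation p = 0.1, two-sided).

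Pabpn1 encodes the nuclear protein that binds a growing tail and speeds the polymerase. Its counts were low, 251 to 443 reads a library. These gave 4.68, 4.82 and 4.02 CPM in the wild-type libraries and 5.56, 4.90 and 8.77 CPM in the SKO libraries. The groups did not overlap, but SKO replicate 3 was at 1.68 times the mean of the other SKO libraries, and the log2 fold change of 0.51 ± 0.25 did not pass (edgeR adjusted p = 0.132). It fell to 0.18 without SKO replicate 3, and passed at 0.77 under the length and GC correction (edgeR adjusted p = 0.0246). The annotation places the gene on chromosome 14 (54892500 to 54898169, plus strand), where the coding gene Gm20521 shares 21.4% of its exonic bases on the same strand, so reads from that stretch cannot be assigned to Pabpn1 with certainty.

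Mouse testis also expresses other genes for cytoplasmic poly(A)-binding proteins, of which Pabpc2 and Pabpc6 have 1 exon, and the 4 measured did not pass the test. The Pabpc2 level was 1421, 1566 and 1490 CPM in the wild-type libraries and 1719, 1573 and 895.1 CPM in the SKO libraries (log2 fold change -0.10 ± 0.21, edgeR adjusted p = 0.746). SKO replicate 3 was the only SKO library under the wild-type range. Pabpc6 had 249.5 to 380.4 CPM in wild type and 267.3 to 303.6 CPM in SKO (log2 fold change -0.04 ± 0.17, edgeR adjusted p = 0.857). X-linked Pabpc5 ranged over 1.86 to 2.93 CPM in wild type, against 2.93 to 4.98 CPM in SKO (edgeR adjusted p = 0.0963), and Pabpc1l at 2.13 to 3.11 and 2.08 to 3.21 CPM (edgeR adjusted p = 0.97). The coding sequences of Pabpc2 and Pabpc6 were identical to that of Pabpc1 at 83.2% and 83.4% of aligned bases, with no 150-base window in common with a transcript of another gene.

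The make-up of the cytoplasmic poly(A)-binding family, 5 genes, was set side by side in the same way. Pabpc1 made up 31.9%, 28.9% and 29.6% of the family's summed CPM per kb in wild type and 39.4%, 40.0% and 55.4% in SKO. The Pabpc2 share was 59.0%, 59.4% and 61.8% in wild type against 52.9%, 52.6% and 34.9% in SKO. Neither share overlapped between the groups, and both had p = 0.1 in the exact permutation test, two-sided. Shares of a family add up to the whole, so a larger Pabpc1 share lowers the Pabpc2 share, and these are not separate results. The Pabpc2 level itself was not called (edgeR adjusted p = 0.746). The difference in the Pabpc1 share was 14.8 percentage points, and 9.62 without SKO replicate 3.

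**Figure D3:**
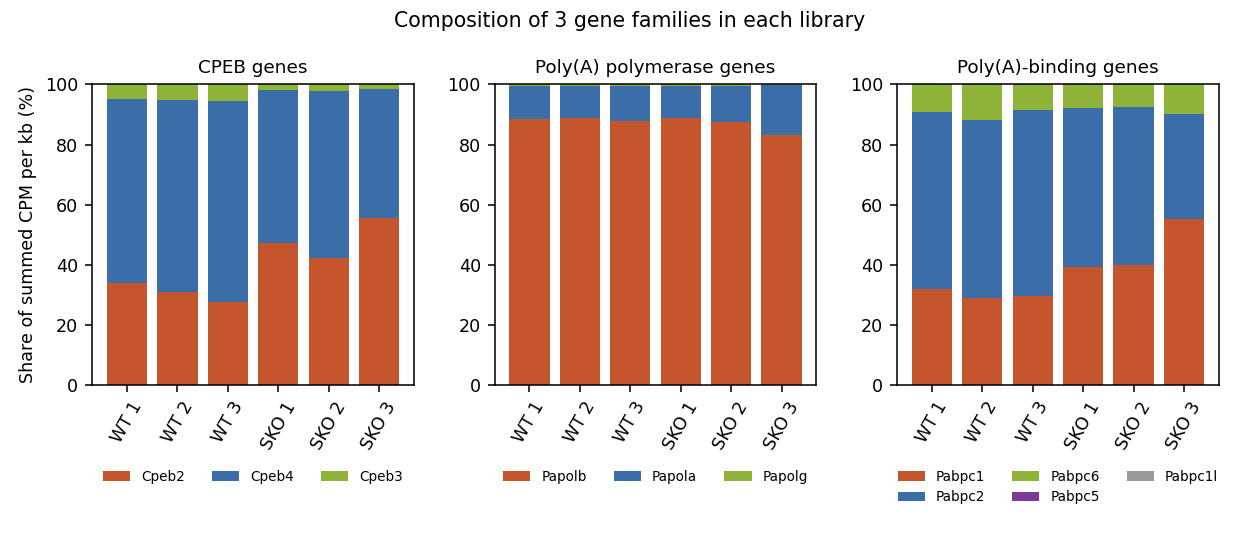
Share of each gene in the summed CPM per kb of its family, in percent, with 1 stacked bar for each library. The Cpeb2 part is 27.7% to 34.0% in wild type and 42.4% to 55.5% in SKO, the Papolb part is between 83.3% and 89.0% in all 6 libraries, and the Pabpc1 part is largest in SKO replicate 3, at 55.4%.

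SKO replicate 3 stood apart from the other SKO libraries on the second principal component of all genes (-71.4 against 40.3 and 37.6). In that library Papolb and Pabpc2 were at 0.54 times the mean of SKO replicates 1 and 2, while Cpeb2 and Pabpn1 were at 1.72 and 1.68 times and Pabpc1 and Paip2 at 1.15 and 1.12 times. The median ratio over all genes tested was 0.998. Library totals ran from 52055193 to 60970931 counts. Genes detected ran from 21177 to 21321 in SKO and from 21616 to 22006 in wild type. The TMM factors used to scale the libraries were also apart, at 0.88 to 0.97 in SKO and 1.08 to 1.10 in wild type.

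Marker genes were read as a check of the cells. All 14 round spermatid markers were present, with sums of 8947 to 10252 CPM in SKO and 6000 to 6693 CPM in wild type. Of these, 9 were called higher and 0 lower, beside 21.2% higher and 20.9% lower of all genes. Markers of Sertoli cells, the somatic nurse cells of the tubule, summed to 224.5, 127.7 and 68.6 CPM in the SKO libraries and to 3.00 to 12.3 CPM in wild type, over 9 of 14 listed genes, 8 of them called higher and none at 0 in all libraries. Sox9, Amh, Cldn11, Wt1 and Fshr of that list were not analysed here. Leydig cell markers (6 of 7 genes) summed to 8.01 to 44.6 CPM in SKO and 1.26 to 21.6 CPM in wild type. Among them 3 were called higher and 0 lower. Peritubular and endothelial markers (3 of 5 genes) summed to 50 to 68.3 and 5.62 to 23.6 CPM, with 1 called higher and 0 lower. Spermatocyte markers summed to 1591 to 2137 CPM in SKO and 1867 to 1893 CPM in wild type over 12 of 12 genes, with 2 called higher and 2 lower. Spermatogonium markers (6 of 8 genes) summed to 27.9 to 29.3 and 30.7 to 34.5 CPM, with 0 called higher and 2 lower. Macrophage markers (4 of 5 genes) summed to 1.22 to 5.62 and 3.01 to 4.01 CPM. Of the 3 macrophage genes tested, 1 was called higher and 1 lower. The part of these cells in the differences of Cpeb2, Cpeb3, Pabpc1 and Paip2 was not tested.

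Around the 8 genes, 5 lists of other genes of the pathway were followed, with 79 of 84 listed genes tested. Of these 19 were higher and 10 lower in SKO, with a median log2 fold change of -0.07, beside the 21.2% higher and 20.9% lower of all genes. With library totals as the only scaling, the lists had 13 higher and 23 lower. Under that scaling the all-gene median was -0.23, and 2831 of all 19776 genes were higher and 5666 lower. Each direction given here rests on TMM scaling unless stated, under which the all-gene median was 0.012. Without wild-type replicate 1 the count of lower genes in the lists was 6, where 3160 of all 20243 genes were lower.

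Among genes for partners of the CPEB proteins and RNA-binding proteins that act beside them, 5 of 14 were higher and 0 lower. Over all genes 21.2% were higher and 20.9% lower. The median of the list was 0.16. Dazl, an RNA-binding protein gene of germ cells that recruits poly(A)-binding protein, rose from 21.1, 19.4 and 21.8 CPM to 77.7, 79.6 and 59.4 CPM (log2 fold change 1.80 ± 0.16, edgeR adjusted p = 5.77e-05). Pum2, a Pumilio repressor gene, rose from 14.8 ± 1.18 to 31.1 ± 5.65 CPM (SD, n = 3), with an edgeR adjusted p of 0.00104. The cap-binding factor gene Eif4e and the RNA helicase gene Ddx6 also passed, at 0.69 ± 0.18 and 0.72 ± 0.26, but Eif4e was lost without SKO replicate 2 or wild-type replicate 2 and Ddx6 in 9 of 14 alternatives. Library totals alone gave 4 higher and 2 lower in this list, with a median of -0.07. Over all genes that scaling gave 2831 higher and 5666 lower of 19776. In this list 3 were higher without wild-type replicate 2, where all genes had 3064 higher of 20220.

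The deadenylation list, for the enzymes that shorten tails and their adaptors, held 4 genes higher and 5 lower of 23, with a median of -0.26. These counts stand beside all-gene shares of 21.2% higher and 20.9% lower. Of the list's 11 genes named for the CCR4-NOT complex, the main deadenylase, 4 were lower and 0 higher. They were picked out by their Cnot symbols and were not among the 5 lists. The share called lower over all genes was 20.9%. Cnot9 fell from 29.3, 31.5 and 28.4 CPM to 16.3, 15.1 and 14.3 CPM (log2 fold change -0.96 ± 0.14, edgeR adjusted p = 0.000692). Cnot10 fell by 0.90 ± 0.20 on the log2 scale. Cnot4 and Cnot6 fell by 0.38 ± 0.13 and 0.46 ± 0.14. Cnot1, the scaffold gene, was not called (log2 fold change 0.33, edgeR adjusted p = 0.126), and the catalytic subunit genes Cnot7 and Cnot8 had log2 fold changes of -0.18 and 0.31 (edgeR adjusted p = 0.561 and 0.546). With the length and GC correction 3 of the 11 were lower and 1 higher, and without SKO replicate 3 the counts were 4 and 1. Without wild-type replicate 1 or 3, 2 were lower, since Cnot4 and Cnot6 then missed the threshold. Cnot4 was called in 8 and Cnot6 in 12 of 15 alternatives.

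Outside that complex, Parn, a poly(A)-specific ribonuclease gene, fell by 0.86 ± 0.20. Pan3, the gene of the adaptor that brings the PAN2 deadenylase to poly(A)-binding protein, rose from 100.1, 73.9 and 104.9 CPM to 220.0, 250.3 and 171.0 CPM (log2 fold change 1.20 ± 0.19, edgeR adjusted p = 0.000833). Pan2 itself was not called (log2 fold change -0.52, edgeR adjusted p = 0.0775). Tob1, Btg1 and Btg2, whose proteins link deadenylases to their targets, rose by 1.14 ± 0.17, 0.61 ± 0.13 and 2.53 ± 0.46. Their relatives Tob2 and Btg4 in the same list were not called, at 0.47 and -0.27 (edgeR adjusted p = 0.114 and 0.159). Btg2 was low in wild type, at 0.41, 0.78 and 1.36 CPM, against 3.84, 3.49 and 7.46 CPM in SKO.

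In the list of nuclear cleavage and polyadenylation genes, 5 of 20 were higher, 2 were lower, and the median was -0.21. The shares over all genes were 21.2% higher and 20.9% lower. Pcf11, which couples cleavage to the end of transcription, rose from 49.2, 53.7 and 41.3 CPM to 101.7, 93.2 and 128.7 CPM (log2 fold change 1.17 ± 0.17, edgeR adjusted p = 0.000591). Wdr33, Rbbp6, Nudt21 and Ssu72 rose by 0.50, 0.78, 0.42 and 0.56. Cpsf3, the endonuclease gene of the complex, fell by 0.64 ± 0.17 (edgeR adjusted p = 0.0136) and the testis-enriched relative Cpsf4l by 0.37 ± 0.13 (edgeR adjusted p = 0.0402). Under library totals the list had 1 higher and 5 lower, where all genes had 2831 higher and 5666 lower of 19776. Without wild-type replicate 1 or 3, 2 genes were higher, as Nudt21 and Ssu72 missed the threshold in both cases, Rbbp6 in the first and Wdr33 in the second. In all, Nudt21 was called in 10 and Ssu72 in 6 of 15 alternatives, and Ssu72 was lost whichever of the 6 libraries was left out. Cpsf3 missed the threshold without wild-type replicate 1 or 2, and Cpsf4l in 7 of 15 alternatives. The list's median turned to 0.18 under the length and GC correction.

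Non-canonical nucleotidyltransferases, which add A or U to RNA ends outside the main pathway, had 2 of 11 higher and 3 lower, with a median of -0.12. Among all genes 21.2% were higher and 20.9% lower. Tut1, for an enzyme that adds U to U6 RNA, fell from 25.8, 31.0 and 24.3 CPM to 10.2, 5.42 and 11.6 CPM (log2 fold change -1.58 ± 0.26, edgeR adjusted p = 0.00127). Tent5b fell by 1.43 ± 0.24 and Mtpap, the mitochondrial poly(A) polymerase gene, by 1.23 ± 0.28. Tut4, a terminal uridylyltransferase gene, rose by 0.78 ± 0.14, with 31.1 to 34.4 CPM in SKO and 18.3 to 19.7 CPM in wild type. Tent2, whose product is the polymerase known to work with CPEB1, had 5.50 to 7.89 CPM in SKO and 6.60 to 7.77 CPM in wild type (log2 fold change -0.05, edgeR adjusted p = 0.867).

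Tent5d, an X-linked gene of the same family, had wild-type levels of 120.9, 133.4 and 148.6 CPM and SKO levels of 332.0, 385.3 and 133.3 CPM. It passed the test (log2 fold change 1.08 ± 0.32, edgeR adjusted p = 0.0215), yet SKO replicate 3 lay within the wild-type range, and the call was lost in 5 of 15 alternatives. Of the X-linked genes tested, 63.4% were called higher.

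Other poly(A)-binding genes and their regulators had 3 of 11 higher and 0 lower, beside 21.2% and 20.9% of all genes. The median of the list was -0.02, and 0.31 under the length and GC correction. Paip1, which encodes a translation activator that binds poly(A)-binding protein, rose from 1.98, 1.16 and 1.51 CPM to 5.06, 3.82 and 3.07 CPM (log2 fold change 1.36 ± 0.30, edgeR adjusted p = 0.00509). Larp4b, for an RNA-binding protein of the La-related family, rose by 0.53 ± 0.16, a call lost in 5 of 15 alternatives. Zc3h14, a nuclear poly(A)-binding gene, had 751.8, 803.0 and 393.0 CPM in SKO and 660.1 to 698.8 CPM in wild type (edgeR adjusted p = 0.837). As with Papolb and Pabpc2, its lowest value was that of SKO replicate 3.

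**Figure D4:**
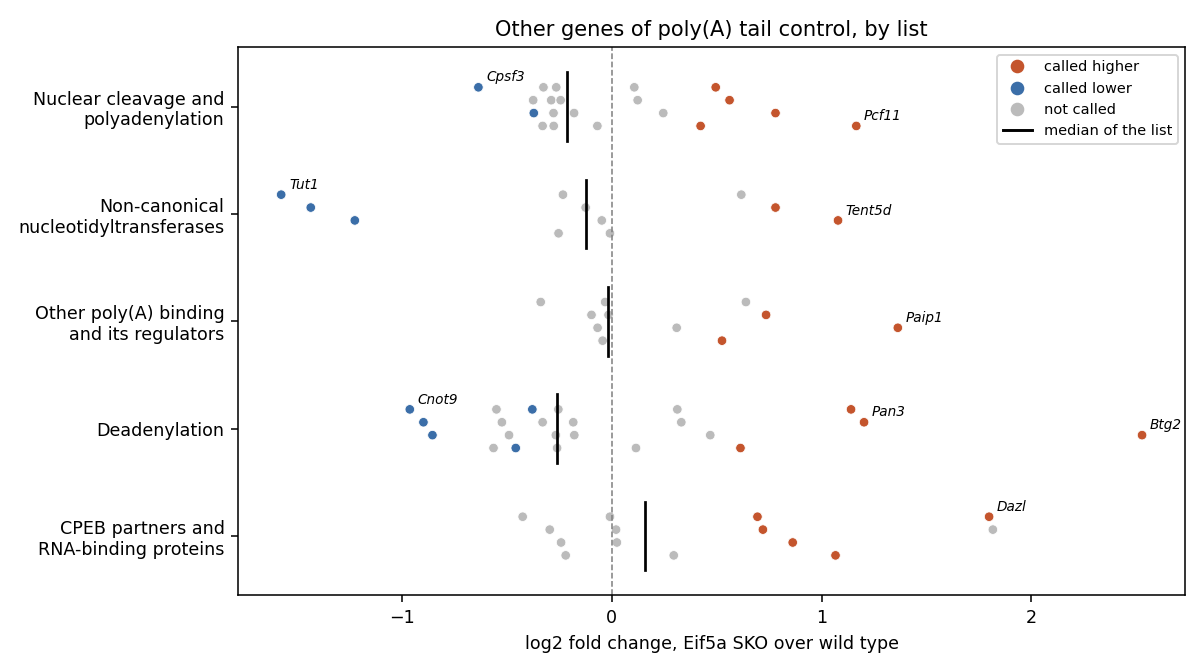
Log2 fold change (SKO over wild type) of each tested gene in the 5 lists, with genes called higher in orange, called lower in blue, not called in grey, and a black line at the median of each list. The medians lie between -0.26 and 0.16, and Btg2, at 2.53, and Tut1, at -1.58, are the called genes farthest to each side.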

How the data were processed

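The 6 Smart-seq2 libraries (150-base read pairs, polyadenylated RNA) were analysed as 3 against 3. The authors deposited raw counts per gene, 1 column per library, and each column was matched to a sample by genotype and number. The knockout columns are headed cKO where the sample labels say Eif5a SKO. They were taken as the same, since the series holds no other knockout genotype. Per the submitters' processing notes, the tools were featureCounts 1.5.0-p3, HISAT2 2.0.5 and Trim Galore 0.6.4, with GRCm38. The annotation release, the strand setting and how reads with several matches were counted were not given in the sources used here. PCR reads without molecular identifiers are not independent molecules.

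edgeR 4.0.16 was run on the counts after filterByExpr, with TMM scaling and a two-sided quasi-likelihood test. Benjamini-Hochberg adjustment was over all genes tested. The filter asked for a CPM worth 10 reads in a library of median size, in at least 3 libraries, and for 15 reads in all. A gene could thus pass through the libraries of either genotype alone. SE is the absolute log2 fold change over the square root of F. Shares within a family were compared by the exact permutation test over libraries. Lengths came from the GENCODE M21 transcript with the longest coding sequence. Lists and members were chosen with earlier results of these data known. All members are named, their tested paralogs, and up to 3 genes per list and direction with the lowest adjusted p, except that some results are not reported here; the other list genes named (Eif4e, Ddx6, Cnot1, Cnot4, Cnot6, Cnot7, Cnot8, Pan2, Btg1, Nudt21, Ssu72, Tent2 and Zc3h14) were chosen after their values were seen. The alternatives tried were limma-voom 3.58.1, DESeq2 1.42.0, DESeq2's size factors alone, other factors and filters, a length and GC correction, a replicate block and each library left out. The edgeR fit and the length and GC correction were tested on simulated counts. There 49% of 2-fold and 100% of 4-fold changes were recovered, and 3.25% of calls were false. That simulation had few changed genes and a fixed spread, unlike these data, so its shares need not hold here.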

Additional observations from a re-analysis of the deposited data

How the results depend on the processing

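Over 15 alternatives the count of members called higher ran from 2 to 4 and that of members called lower was 1 in each. Cpeb3, Pabpc1 and Paip2 kept their direction and their call in all 15. The count of members higher was 2 to 3 when a library was left out. Signs turned for members that were not called: Cpeb4 with the length and GC correction (0.036), Papola with library totals (-0.168) and without SKO replicate 2 (-0.023, in a leave-one-out range to 0.119), and Papolb without SKO replicate 3 (0.104, in a leave-one-out range from -0.286). The number of genes of the 5 lists called lower, 10, became 23 with library totals and 6 to 14 when a library was left out. The 6 came without wild-type replicate 1, where 3160 of 20243 genes were lower. The 14 came without SKO replicate 3, where 4766 of 20262 genes were lower. The number of list genes called higher, 19, ran from 13 to 21. The share of calls that were higher over all genes went from 50.3% to 33.3% with library totals. The difference in the Paip2 share, 0.61 percentage points, was 1.46 in CPM without length scaling. Same-numbered libraries did not deviate together (correlations of -0.02, -0.05 and -0.07, and no SKO library correlated best with its own number). With the replicate block, 3 members were higher and 1 lower, and 16 and 7 genes of the lists. Over all 19776 genes the block gave 3552 higher and 3666 lower. Cpeb3, at 184 to 670 reads a library, and Pabpn1, at 251 to 443, carry more counting error than the other members.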
